A study of Mus musculus with 2 samples.

Results

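The set described here comprises the uncoupling proteins Ucp1, Ucp2 and Ucp3, the phosphate carrier Slc25a3, the ADP/ATP carriers Slc25a4 and Slc25a5, the carnitine-acylcarnitine carrier Slc25a20, and the voltage-dependent anion channels Vdac1, Vdac2 and Vdac3. Its members were picked by gene name, and no measured value enters the rule. They are 10 of the 20330 gene identifiers left in the deposited expression table after rows repeated in full were dropped and other values for the same identifier were summed. All 10 had a row, and 9 passed a filter of at least 1 FPKM (fragments per kilobase of transcript, scaled to the number of mapped fragments) in at least 1 of the 2 libraries.

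Adipose tissue macrophages (ATM) were sorted with antibodies to F4/80 and CD11b from visceral fat of C57BL/6 mice on a high-fat diet, and poly(A) RNA was sequenced. The diet began at 4 weeks of age and lasted 12 weeks. Both groups were labelled Hif-1α fl/fl and ApoE-/-, so the control mice also carried the ApoE null and the floxed Hif-1α alleles. The WT group was hMRP8cre- and the myeloid-specific Hif-1α KO group was hMRP8cre+, in which Cre is driven by the promoter of human MRP8 (S100A8), a gene of neutrophils and monocytes. Each group had 1 library, and the sources used here do not state how many animals it came from. With 1 library a group, the spread between replicates is unknown and no p-value is given.

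The inner mitochondrial membrane keeps the proton gradient made by the respiratory chain, and the SLC25 family of carriers moves metabolites across it. ADP/ATP carriers exchange ADP for ATP, the phosphate carrier brings in phosphate for ATP synthase, and the carnitine-acylcarnitine carrier brings in fatty acids bound for oxidation. Uncoupling proteins belong to the same family. UCP1, known from brown and beige adipocytes, lets protons return without ATP synthesis and so releases heat, whereas UCP2 and UCP3 are not established as heat producers. VDACs are porins of the outer membrane, through which ATP, ADP and other small metabolites pass. The comparison asks how Ucp1 RNA, which the study relates to heat production in ATM, stood beside the transcripts of these other carriers in each genotype.

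The most common low FPKM × length value among genes with a single transcript gave 1 fragment as 0.170 FPKM × kb in the WT library and 0.134 in the KO library, or an estimated 5870000 and 7460000 mapped fragments. These estimates, with the shortest annotated coding transcript of a gene, gave the exact 95% binomial (Clopper-Pearson) intervals below. The intervals cover counting error only, not variation between animals, and PCR copies are not independent molecules. The library labelled KO had 21.0 FPKM for Hif1a and the WT library 30.4 FPKM. These are values of the whole gene, and the floxed exon was not analysed here. Apoe, for which both groups are labelled null, was listed at 94.3 FPKM in WT against 117 FPKM in KO. This is also a value of the whole gene, which does not show whether the RNA is intact, so neither gene checks its label. The antigens of the sort were at 299 and 239 FPKM for Adgre1 (F4/80), and at 128 FPKM in each library for Itgam (CD11b), WT given first. In bulk RNA, fewer cells of a type and less RNA per cell cannot be told apart.

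Ucp2 was the most abundant member in both genotypes, and Ucp1 was detected far below it. On the FPKM scale the WT library held 8.34 FPKM of Ucp1 and the KO library 12.0 FPKM. Ucp2 was at 644 FPKM in WT against 825 FPKM in KO. Ucp3 was listed at 0 in both libraries, so the paralogs covered the range from no listed RNA to one of the most abundant transcripts of these cells.

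Within a library, Ucp2 was 77.2 times the level of Ucp1 in WT and 69.0 times in KO. Ucp1 made up 1.28% of the summed FPKM of the uncoupling proteins in WT and 1.43% in KO, and Ucp2 the remaining 98.7% and 98.6%. Because such a share is taken inside 1 library, it does not depend on how the libraries were scaled to each other. Ucp1 lay above 44.9% of the genes listed above 0 in WT and above 55.7% in KO, near the middle of the transcriptome. Ucp2 lay above 98.4% and 99.0% of them.

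**Figure D1:**
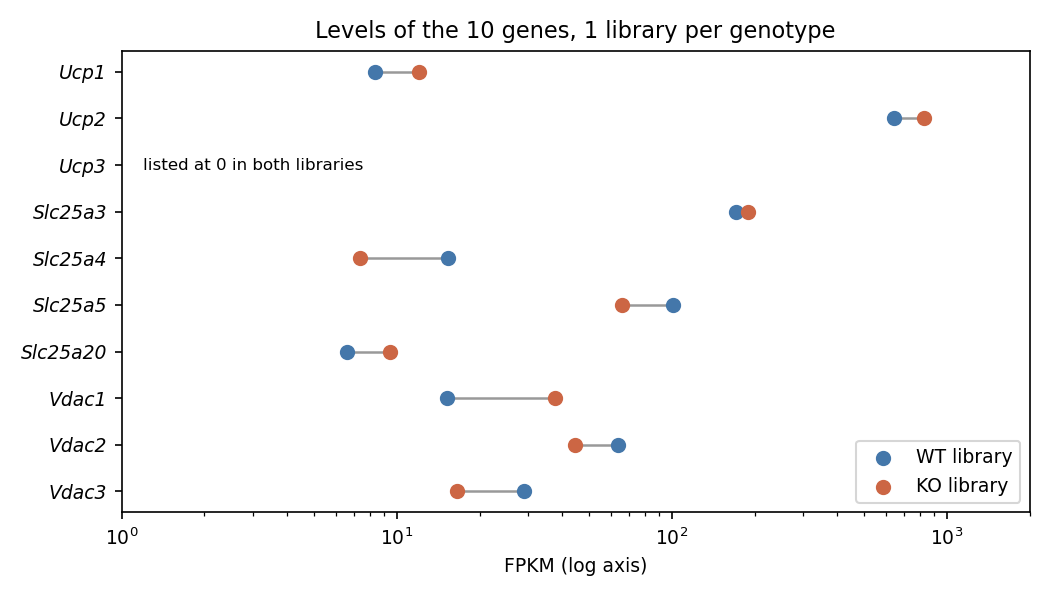
FPKM of each member in the WT and KO library, on a log axis, with 1 point per library and members ordered by role. Ucp2 lies highest in both libraries at 644 and 825 FPKM, Ucp1 lies at 8.34 and 12.0 FPKM, and Ucp3 is listed at 0.

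Ucp1 was higher in the KO library by 0.47 on the log2(FPKM + 1) scale. Its FPKM ratio of KO to WT was 1.43, with a counting interval of 1.09 to 1.91 that came from about 80 WT and 146 KO fragments. The ratio was below the 3-fold difference that the study used for these libraries. Among the 3746 genes with a mean of 5 to 20 FPKM, 26.6% differed by 3-fold or more in either direction, and 69.9% differed by more than Ucp1 did. The quartiles of the difference in this band were -0.85 and 0.88, and the value of Ucp1 lay between them.

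Ucp2 was higher in the KO library by 0.36 on the log2(FPKM + 1) scale, an FPKM ratio of 1.28 with a counting interval of 1.22 to 1.35. Its interval was much narrower than that of Ucp1 because it rested on at least 2531 and 4126 fragments. Of the 748 genes with a mean of 100 FPKM or more, 2.14% passed 3-fold and 42.0% differed by more than Ucp2. The counting intervals of Ucp1 and Ucp2 overlapped from 1.22 to 1.35, so a difference between their ratios was not detectable at this depth.

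The position and uniqueness of each transcript bear on what these values count. Coordinates are those of GRCm38 in GENCODE M21, whereas the submitters' processing notes name mm9 as the build of the files. Ucp1 (ENSMUSG00000031710) lies at chr8:83290352-83298452 on the plus strand and has 1 annotated coding transcript of 1636 nt with 6 exons. None of its 1587 windows of 50 nt occurred in a transcript of another gene. Ucp2 (ENSMUSG00000033685) at chr7:100493337-100502020 and Ucp3 (ENSMUSG00000032942) at chr7:100472990-100486432 are neighbours on the plus strand of chromosome 7. The coding sequence of Ucp1 shared 60.3% of its aligned bases with Ucp2 and 62.4% with Ucp3, and Ucp2 shared 73.5% with Ucp3.

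Ucp2 overlaps Dnajb13 on the opposite strand, and 5.72% of the Ucp2 windows also occurred in Dnajb13 transcripts. The label protocol, with random hexamers, names no step that marks the strand. Dnajb13 was listed at 11.6 FPKM in WT against 10.1 FPKM in KO, far below Ucp2.

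The study also measured Ucp1 by quantitative PCR and reported it as significantly higher in sorted ATM of the KO mice. The stretch that its primers span shows which part of the transcript that assay reads. It is given here from GENCODE M21, 5′ to 3′ on the transcript, with the primer sites in capitals. The product of 74 nt lies in coding sequence at transcript positions 995 to 1068 and crosses from exon 5 to exon 6, between chr8:83295304 and chr8:83297884 on GRCm38.
Ucp1 amplicon: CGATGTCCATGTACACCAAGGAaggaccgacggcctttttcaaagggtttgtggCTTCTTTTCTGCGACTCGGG
The forward primer matched its site in all 22 bases. The reverse primer, as printed in the supplement of the study, matched in 19 of 20 bases and differed by G10C, with the primer base first, the position counted from 1 at the 5′ end of the primer, and the base of the site last. A typing error in that list and a true mismatch cannot be told apart. FPKM values count fragments along the whole transcript and not this stretch alone.

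Programme genes that accompany UCP1 in brown and beige adipocytes were mostly listed at 0 in these ATM libraries. Of 18 such genes, 11 were at 0 in both libraries. They were Ppargc1a, Prdm16, Cidea, Dio2, Adrb3, Elovl3, Cox8b, Ebf2, Ppara, Fgf21 and Bmp8b. For Ppargc1a (Pgc1α) the study reported higher expression in sorted ATM of the KO mice. Values of 0 were common in these data, since 11207 of all 20330 identifiers were above 0 in at least 1 library. Of the 7 that passed the filter, 1 was higher by 3-fold, 2 were lower and 4 lay within 3-fold, with a median log2 difference of 0.20. Under filters of at least 1 FPKM in both libraries or a mean of at least 5 FPKM, 1 was lower. Over all 10297 genes past the filter 27.3% passed 3-fold, 13.6% higher in KO and 13.7% lower, and the median was 0.03.

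Esrra, which encodes the nuclear receptor ERRα and acts on mitochondrial genes, was the 1 higher gene, at 2.91 FPKM in WT against 15.2 FPKM in KO. Pparg, a receptor that drives fat cell differentiation and is also used by macrophages, was lower, at 36.4 FPKM in WT against 7.78 FPKM in KO. Cox7a1, a cytochrome c oxidase subunit of brown fat and muscle, was at 7.62 FPKM in WT and listed at 0 in KO. Among the genes within 3-fold, Ppargc1b, a coactivator of mitochondrial genes, was at 7.96 and 7.67 FPKM.

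Marker lists for other cells that the sort could hold were read beside Ucp1. Of 7 brown adipocyte markers 6 were at 0 in both libraries, and Cox7a1 was the exception, so the summed FPKM was 7.62 in WT and 0 in KO. Of 6 muscle markers 5 were at 0 in both, with sums of 0 and 0.315 FPKM. Of 8 adipocyte markers 4 were at 0 in both. These were Adipoq, Plin1, Retn and Pck1. Of the 4 past the filter, 2 passed 3-fold, against 27.3% of all genes: Cfd was listed at 0 in WT but at 7.11 FPKM in KO, and Cidec was at 5.83 FPKM in WT but listed at 0 in KO. Lipe was at 16.8 and 20.1 FPKM, and Lep was listed at 0 in WT and reached 1.60 FPKM in KO. With at least 1 FPKM in both libraries or a mean of at least 5 FPKM, 0 adipocyte markers passed 3-fold in either direction. The adipocyte sums were 22.6 FPKM in WT against 28.8 FPKM in KO. Macrophage markers summed to 11141 FPKM in WT against 10315 FPKM in KO, and 0 of the 8 past the filter passed 3-fold.

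Markers of some other cells were higher in the KO library, the direction in which Ucp1 also lay. Of 9 neutrophil markers with a row, 6 passed the filter and 3 were higher by 3-fold, where 13.6% of all genes were. Of these, Ngp and Mpo were at 0 in WT and passed the filter through the KO library alone, and 1 gene, S100a9, was higher with at least 1 FPKM in both libraries or a mean of at least 5 FPKM. Their summed FPKM was 143 in WT and 499 in KO, with 3 of the 9, Camp, Ltf and Elane, at 0 in both. Most of it was S100a8, at 73.3 and 182 FPKM, and S100a9, at 63.4 and 301 FPKM, WT first. Cxcr2 lay within 3-fold, at 5.83 FPKM in WT against 7.96 FPKM in KO. The sums of fibroblast markers, of which 2 of 5 past the filter were higher by 3-fold, were 43.2 and 84.3 FPKM. Under the same 2 stricter filters, 0 fibroblast markers were higher, since Pdgfra and Col1a2 had passed through the KO library alone. The part of these cells in any difference described here was not tested. The eosinophil list came to a single gene, Ccr3, listed at 0 in WT but at 7.45 FPKM in KO, with Siglecf, Epx and Prg2 at 0 in both. The mesothelial list likewise came to Upk3b, listed at 0 in WT but at 7.84 FPKM in KO, with Msln, Krt19 and Lrrn4 at 0 in both. Both genes passed the filter through the KO library alone. Endothelial markers summed to 13.6 and 16.0 FPKM.

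The ADP/ATP carriers lay in the opposite direction to Ucp1 and Ucp2. Slc25a5 (ANT2, ENSMUSG00000016319), the ADP/ATP carrier of most growing cells, was at 101 FPKM in WT against 66.1 FPKM in KO. Slc25a4 (ANT1, ENSMUSG00000031633), the carrier best known from heart and muscle, was at 15.3 FPKM in WT against 7.35 FPKM in KO. Together they summed to 116 FPKM in WT against 73.5 FPKM in KO, a ratio of WT to KO of 1.58.

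The difference of Slc25a4 was -0.96 on the log2(FPKM + 1) scale, and its FPKM was 2.08 times as high in WT as in KO, with a counting interval of 1.61 to 2.65. It rested on about 172 WT and 106 KO fragments. In its band of 5 to 20 FPKM, 45.9% of genes differed by more. Slc25a5 differed by -0.60, a WT to KO ratio of 1.53 with an interval of 1.37 to 1.70. Of the 2378 genes with a mean of 20 to 100 FPKM, 9.80% passed 3-fold and 43.6% differed by more than Slc25a5. Both carriers thus stayed within 3-fold, and neither counting interval held a ratio of 1.

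The order of Ucp1 and Slc25a4 was not the same in the 2 libraries. Slc25a4 was 1.83 times Ucp1 in WT and 0.615 times Ucp1 in KO. Slc25a5 exceeded Slc25a4 in both, by 6.62 times in WT and 8.99 times in KO, and made up 86.9% and 90.0% of their sum. Whether either ratio differs between animals of the genotypes was not tested, since each rests on 1 library.

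**Figure D2:**
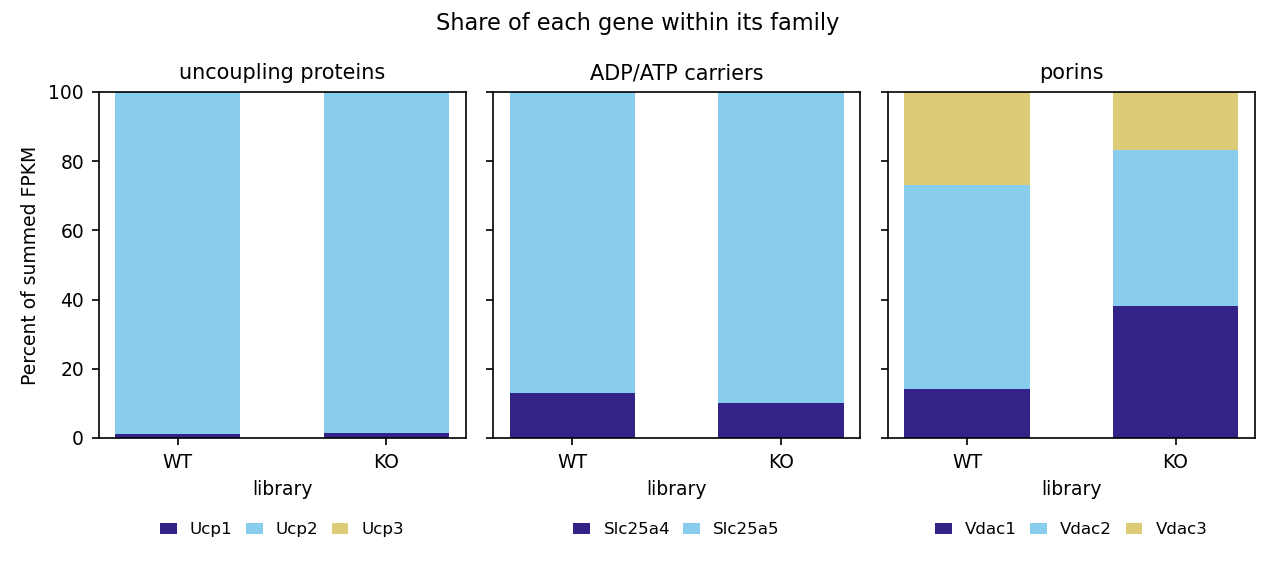
Share of each paralog in the summed FPKM of its group, in percent, for the uncoupling proteins, the ADP/ATP carriers and the VDACs, with 1 bar per library. Ucp2 holds 98.7% and 98.6% of the uncoupling proteins, Slc25a5 holds 86.9% and 90.0% of the ADP/ATP carriers, and the share of Vdac1 is 14.1% in WT and 38.1% in KO.

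Slc25a4 lies at chr8:46206797-46211284 on the minus strand, and none of its 50-nt windows occurred in another gene. Slc25a5 lies at chrX:36795651-36798807 on the plus strand. Of its 1191 windows, 555 (46.6%) also occurred in transcripts of 9 other annotated genes, pseudogenes such as Gm5560 and Gm5529 among them, and 0 of the 9 had a row in the table. How fragments with several positions were assigned is not given in the sources used here, so the level of Slc25a5 is uncertain to that extent. The coding sequences of both carriers have 894 nt and shared 77.4% of their bases.

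The phosphate carrier was the second most abundant member and was nearly level between the genotypes. Slc25a3 (ENSMUSG00000061904) was at 171 FPKM in WT against 189 FPKM in KO, a log2 difference of 0.14. The FPKM ratio of KO to WT was 1.10, with an interval of 1.03 to 1.18, and 73.1% of the genes at 100 FPKM or more differed by more. It exceeded Slc25a5 by 1.69 times in WT and 2.85 times in KO, and Ucp1 by 20.5 and 15.8 times. Slc25a3 lies at chr10:91116574-91124059 on the minus strand, and 3.09% of its windows also occurred in the pseudogene Gm13904. Its span also holds the snoRNA gene Gm24119 on the same strand.

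The carnitine-acylcarnitine carrier was close to Ucp1 in both level and difference. Slc25a20 (ENSMUSG00000032602) was at 6.62 FPKM in WT against 9.48 FPKM in KO, a log2 difference of 0.46. Its ratio of KO to WT was 1.43, with an interval of 1.06 to 1.96 from 69 and 126 fragments, and 70.5% of the genes in its band differed by more. It lies at chr9:108662088-108684641 on the plus strand, and shared no window with another gene.

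Of 11 genes of the carnitine shuttle around this carrier, 9 had a row and 8 passed the filter. Of these, 2 were higher in KO by 3-fold, 0 were lower and 6 lay within 3-fold, with a median of 0.23 against 0.03 over all genes. Over all genes 27.3% passed 3-fold, a share near that of this list. When the libraries were scaled to a median log2 ratio of 0, 1 was higher, since Slc22a5 lay at the threshold with 1.59, and with a pseudocount of 0.1 or 0.01 1 was lower. The higher genes were Slc22a5, the carnitine importer of the plasma membrane, at 4.30 and 15.0 FPKM, and Acsl5, an acyl-CoA synthetase, at 6.51 and 31.5 FPKM, WT first. Cpt1a, the outer-membrane enzyme that makes acylcarnitine, was at 45.7 FPKM in WT against 54.0 FPKM in KO. Crat, which makes acetylcarnitine, was at 34.1 and 19.3 FPKM. Cpt2, which turns acylcarnitine back to acyl-CoA inside, was at 3.56 and 2.68 FPKM.

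ATP synthase uses what the ADP/ATP and phosphate carriers bring in, and its 20 subunits and helpers were read beside them. Of 18 past the filter, 0 were higher by 3-fold, 2 were lower and 16 lay within 3-fold, with a median of -0.19 against 0.03 over all genes. The 11.1% past 3-fold stood against 27.3% of all genes and 2.14% of those at 100 FPKM or more, where most of this list lay. The lower genes were Atp5k, the e subunit, at 721 FPKM in WT against 205 FPKM in KO, and Atp5mpl, a small associated protein, at 320 and 98.1 FPKM. Atp5g2, a c-ring subunit among the most abundant of the list, was at 713 and 251 FPKM, a log2 difference of -1.50 that lay just inside 3-fold. The catalytic subunit Atp5b was nearly level at 177 and 180 FPKM. Atpif1, the inhibitor of ATP hydrolysis, was at 343 and 401 FPKM.

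Among the porins, Vdac1 was higher in the KO library, and Vdac2 and Vdac3 were lower. Vdac1 (ENSMUSG00000020402), the best studied porin, was at 15.2 FPKM in WT against 37.6 FPKM in KO. Vdac2 (ENSMUSG00000021771), known to bind BAK, was at 63.5 FPKM in WT against 44.6 FPKM in KO. Vdac3 (ENSMUSG00000008892) was at 29.1 FPKM in WT against 16.5 FPKM in KO. Their sum was 108 FPKM in WT against 98.7 FPKM in KO, a WT to KO ratio of 1.09, so the sum differed much less than its parts.

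Vdac1 had the largest difference of the 9 members past the filter. On the log2(FPKM + 1) scale it was 1.25 higher in KO, and its FPKM ratio of KO to WT was 2.47 with a counting interval of 1.93 to 3.25. The estimate rested on about 79 WT and 250 KO fragments if all came from the shorter of its 2 coding transcripts, and on more otherwise. Of the genes with a mean of 20 to 100 FPKM, 16.1% differed by more. Vdac2 was 1.42 times as high in WT as in KO, with an interval of 1.11 to 1.83, and 51.3% of the same band differed by more. Vdac3 was 1.76 times as high in WT, with an interval of 1.44 to 2.16, and 32.9% differed by more. The log2 differences of Vdac2 and Vdac3 were -0.50 and -0.78.

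The makeup of the porins therefore differed between the libraries. Vdac1 held 14.1% of their summed FPKM in WT and 38.1% in KO, Vdac2 58.9% and 45.2%, and Vdac3 27.0% and 16.7%. Vdac2 was the highest porin in both, by 4.18 times Vdac1 in WT and 1.19 times in KO. Vdac1 was 0.521 times Vdac3 in WT and 2.27 times Vdac3 in KO, so these porins changed places in the order.

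The sequence of Vdac3 was the least particular to its gene. Vdac3 lies at chr8:22577075-22593813 on the minus strand, and 698 of its 1419 windows (49.2%) also occurred in 3 pseudogenes, chiefly Vdac3-ps1, none of which had a row in the table. As with Slc25a5, the level of Vdac3, its share and its place in the order are uncertain to that extent. Vdac1 at chr11:52360860-52389397 shared 1.84% of its windows with 2 pseudogenes, and Vdac2 at chr14:21825238-21845879 shared 7.38% with Gm7832, both porin genes being on the plus strand. The span of Vdac2 overlaps Comtd1 on the opposite strand, with which it shared no 50-nt window. Between the porins themselves, the coding sequences shared 69.0% of bases for Vdac1 and Vdac2, 63.6% for Vdac1 and Vdac3, and 68.4% for Vdac2 and Vdac3.

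Proteins that act at or beside VDAC were read as a list of 19 genes, all of which passed the filter. Of these, 3 were higher in KO by 3-fold, 2 were lower and 14 lay within 3-fold, with a median of -0.06. With at least 1 FPKM in both libraries 1 was higher and 0 were lower, and at a mean of at least 5 FPKM 1 was higher and 1 lower. The 26.3% past 3-fold stood against 27.3% of all genes. Bcl2l1, the survival protein BCL-XL, was at 20.4 FPKM in WT against 65.1 FPKM in KO. Mcu, the pore of the calcium uniporter, was at 0.878 and 4.68 FPKM, and its regulator Micu2 was listed at 0 in WT but at 4.62 FPKM in KO.

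The lower genes were Samm50, which inserts porins into the outer membrane, at 20.5 FPKM in WT against 0.0850 FPKM in KO, and Ppif, cyclophilin D, at 7.20 FPKM in WT and listed at 0 in KO. Genes such as these, which most cells use, show that a low or 0 value in this table can stand in 1 library beside a clear value in the other. Tspo, the translocator protein of the outer membrane, was at 134 and 185 FPKM. Mcl1, a survival protein, was at 518 and 468 FPKM.

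Across the set, 0 members were higher and 0 were lower by 3-fold, against 27.3% of all genes past the filter. The background falls with level, from 26.6% in the band of Ucp1, Slc25a4 and Slc25a20 to 9.80% in that of Slc25a5 and the VDACs and 2.14% in that of Ucp2 and Slc25a3. At a 2-fold difference, which 45.6% of all genes passed, 1 member was counted, Vdac1. Slc25a4, whose FPKM ratio of WT to KO was 2.08, fell short at -0.96 with the pseudocount of 1 and passed at -1.04 with a pseudocount of 0.1. Of the 9 members past the filter, 5 were above 0 and 4 below 0, with a median log2 difference of 0.14. Their summed FPKM was 1054 in WT and 1207 in KO, most of it Ucp2.

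**Figure D3:**
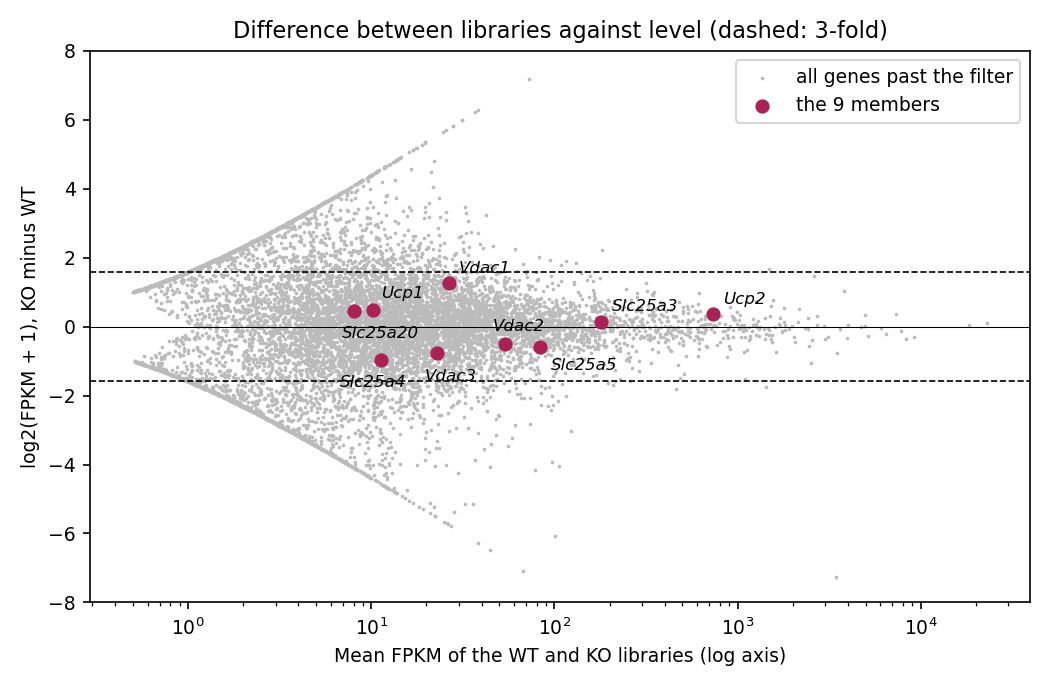
Difference in log2(FPKM + 1), KO minus WT, against the mean FPKM of the 2 libraries on a log axis, with the genes past the filter in grey, the members named and dashed lines at 3-fold. The 9 members past the filter lie within the lines, from Slc25a4 at -0.96 to Vdac1 at 1.25, and the spread of all genes narrows as the level rises.

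In descending order of level, WT ran Ucp2, Slc25a3, Slc25a5, Vdac2, Vdac3, Slc25a4, Vdac1, Ucp1 and Slc25a20. Slc25a4 and Vdac1, at 15.3 and 15.2 FPKM, could not be told apart. In KO the order was Ucp2, Slc25a3, Slc25a5, Vdac2, Vdac1, Vdac3, Ucp1, Slc25a20 and Slc25a4. The first 4 places were the same in both. The spread of levels between animals is unknown, so the order of close neighbours such as Ucp1 and Slc25a20 cannot be judged.

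The rest of the SLC25 family showed how wide the differences were among carriers outside the set. Of 45 other carriers, 10 were at 0 in both libraries and 31 passed the filter. Of the 31, 2 were higher in KO by 3-fold, 10 were lower and 19 lay within, so 38.7% passed 3-fold against 27.3% of all genes. The median log2 difference was -0.88, and 5 of the 31 were listed at 0 in KO. When at least 1 FPKM was required in both libraries, 1 was higher, 5 were lower and the median was 0.06. That filter removes carriers because they are low in 1 library, such as those at 0 in KO. With a filter on the mean, of at least 5 FPKM, 1 was higher, 5 were lower and the median was -0.46. Their summed FPKM was 510 in WT and 367 in KO.

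The 2 carriers higher in KO were Slc25a17, a peroxisomal carrier of coenzyme A and related nucleotides, at 11.0 FPKM in WT against 35.5 FPKM in KO, and Slc25a15, the ornithine carrier, at 0.528 and 4.30 FPKM. Lower carriers with a value in both libraries were the aspartate/glutamate carrier Slc25a13 at 8.67 and 1.24 FPKM, the glutamate carrier Slc25a22 at 10.7 and 1.60 FPKM, and Slc25a45 at 47.0 and 14.6 FPKM. The ATP-Mg/phosphate carriers Slc25a24 and Slc25a23 were at 10.4 and 1.89 FPKM and at 5.59 and 1.19 FPKM, and Slc25a42, a coenzyme A carrier, was at 5.94 and 0.799 FPKM. The lower carriers listed at 0 in KO were the S-adenosylmethionine carrier Slc25a26 with 16.4 FPKM in WT, the glycine carrier Slc25a38 with 10.8 FPKM, Slc25a14 with 3.32 FPKM and Slc25a35 with 2.21 FPKM. The 3 highest by mean lay within 3-fold. Slc25a37, the iron importer mitoferrin 1, was at 53.2 and 59.9 FPKM, Slc25a39, linked to glutathione import, at 64.1 and 21.8 FPKM, and Slc25a11, the oxoglutarate carrier, at 50.4 and 23.9 FPKM.

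**Figure D4:**
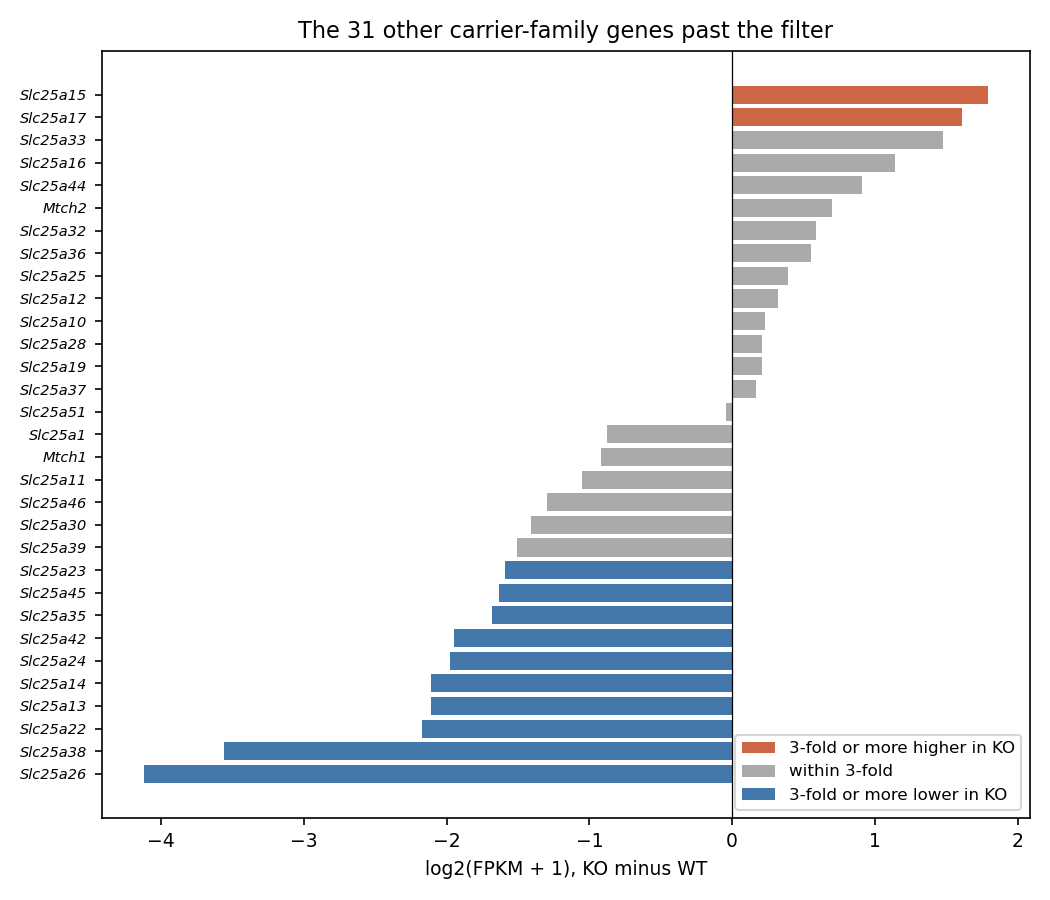
Difference in log2(FPKM + 1), KO minus WT, of the SLC25 carriers outside the set that passed the filter. There is 1 bar per gene, coloured by its call at 3-fold, and a line at 0. Of these carriers, 2 were higher in KO by 3-fold or more and 10 were lower by 3-fold or more.

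Promoters were read because the genotypes differ in Hif-1α, a factor that binds a short core, ACGTG or GCGTG. Windows of 250 bases before the annotated start came from RefSeq (GRCm38.p6) and held 8 of the 10 members. The core was searched on both strands, so capitals below also mark CACGT and CACGC, and matches may overlap. Those shown are the uncoupling proteins with listed RNA and the first start of Vdac1, the member with the largest difference. The windows lie at chr8:83290098-83290347, chr7:100493108-100493357 and chr11:52360601-52360850 on the plus strand, each printed 5′ to 3′ in the direction of the gene. RefSeq and GENCODE M21 do not always place a start at the same base, so the windows of Ucp2, Ucp3, Slc25a3, Slc25a4 and Slc25a20 run into the gene spans given above, that of Ucp3 by its last base and that of Slc25a4 for most of its length. The second Vdac1 window lies wholly inside the gene.
Ucp1: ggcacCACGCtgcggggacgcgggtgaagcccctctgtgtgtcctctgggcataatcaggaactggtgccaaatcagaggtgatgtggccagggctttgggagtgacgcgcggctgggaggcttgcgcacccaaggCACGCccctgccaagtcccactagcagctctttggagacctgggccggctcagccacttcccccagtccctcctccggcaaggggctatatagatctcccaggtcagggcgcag
Ucp2: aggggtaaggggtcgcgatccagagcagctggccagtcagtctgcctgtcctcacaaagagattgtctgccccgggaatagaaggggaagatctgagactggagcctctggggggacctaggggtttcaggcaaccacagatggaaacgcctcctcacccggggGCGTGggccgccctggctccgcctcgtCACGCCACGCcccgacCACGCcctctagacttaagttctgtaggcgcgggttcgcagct
Vdac1: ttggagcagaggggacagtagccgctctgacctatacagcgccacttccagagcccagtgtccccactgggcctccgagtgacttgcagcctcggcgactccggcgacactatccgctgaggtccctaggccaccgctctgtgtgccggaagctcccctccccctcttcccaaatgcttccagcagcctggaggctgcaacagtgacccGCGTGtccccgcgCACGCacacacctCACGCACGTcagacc

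Ucp1 had 2 matches, Ucp2 and the first start of Vdac1 4 each, and Slc25a4 0. Of the members not printed, Slc25a3 had 3 matches, Slc25a5 1, the second start of Vdac1 1, and Ucp3 and Slc25a20 0. A core was in the windows of 5 of the 8 members, and in 38.6% of all 32851 windows. That share ran from 15.8% of windows with 0 to 4 CpG to 70.4% of those with 20 or more. It was 54.6% at 10 to 14 CpG and 63.0% at 15 to 19 CpG, the bands of most member windows. The Ucp1, Ucp2, Vdac1 and Slc25a4 windows held 12, 16, 17 and 18 CpG against a median of 6.00. Members with matches lay on both sides of 0, with Vdac1 higher in KO and Slc25a5 lower. A match describes these letters only and is not a binding site, and no binding was measured here.

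The genes nearest to Ucp1 by Euclidean distance of log2(FPKM + 1) over the 2 libraries were Gars, at 8.28 FPKM in WT against 11.9 FPKM in KO, Cblb, at 8.40 and 12.1 FPKM, and Chfr, at 8.43 and 11.7 FPKM. Nearest to Ucp2 were Tnf, at 678 and 784 FPKM, Ifi207, at 593 and 732 FPKM, and Csf1r, at 615 and 719 FPKM. Nearest to Slc25a5 were Erp29, at 98.6 and 62.2 FPKM, Pold4, at 108 and 68.0 FPKM, and Ssr2, at 92.9 and 67.8 FPKM. With 2 libraries this likeness means only that the values in both were close.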

How the data were processed

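The authors deposited 1 table of FPKM values for the WT and KO libraries. The submitters' processing notes name CASAVA 1.8.2, TopHat2 2.0.9, Cufflinks 2.2.1 and the build mm9, and the annotation and the treatment of fragments with several positions are not given in the sources used here. The mutant column was read as KO. Of 20749 rows, 401 repeated another in full and were dropped, and 18 gave other values for an identifier and were summed. This left 20330 identifiers, 98.5% with a symbol in GENCODE M21. FPKM are not counts, so no count model was used.

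Differences are log2(FPKM + 1), KO minus WT, in the deposited scaling, for genes with at least 1 FPKM in at least 1 library. The pseudocount understates differences of low genes. A gene was called at 3-fold on this scale, the threshold used in the study. The FPKM sums were 585823 in WT and 568329 in KO. Depth was estimated from the FPKM × length of 1 fragment among genes with 1 transcript, as the most common low value (19 of 696 such genes lay at it in WT, with 2 below, and 21 of 738 in KO). Shared sequence was counted as 50-nt windows of the coding transcripts found in other GENCODE M21 transcripts. Alternatives were other pseudocounts, filters, scalings and a 2-fold threshold. Genes named were the members, listed genes past 3-fold or among the 3 highest of their list, and the 3 nearest to Ucp1, Ucp2 and Slc25a5; the remaining list genes given values (Ppargc1b, Cpt2, Atp5b, Lep) and Dnajb13 were chosen after their values were seen. Hif1a, Apoe, Adgre1 and Itgam were named as the genes of the genotypes and the sort. 1 listed gene is not reported here. Members and lists were chosen with earlier results of these data known. Computation used Python 3.11.15, numpy 2.4.6, pandas 2.3.3, scipy 1.17.1 and biopython 1.88, and was tested on simulated data.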

Additional observations from a re-analysis of the deposited data

How the results depend on the processing

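Across other pseudocounts, filters and scalings, the 9 members past the filter kept their sign and stayed within 3-fold. Ucp1 ranged from 0.46 to 0.52 on the log2 scale, Slc25a4 from -1.05 to -0.92 and Vdac1 from 1.24 to 1.31. At 2-fold, 1 member was higher, and Slc25a4 passed it with a pseudocount of 0.1 or 0.01. Over all genes, 429 were higher and 447 lower when 1 FPKM was required in both libraries, 598 and 646 at a mean of at least 5 FPKM, and 2380 and 2314 at 2-fold, against 1402 and 1413. With a pseudocount of 0.1, 1903 were higher and 1849 lower, and with 0.01, 1931 and 1877. The share of all genes past 3-fold thus depends on the pseudocount. Of the other SLC25 carriers, 4 instead of 2 were higher with a pseudocount of 0.1 or 0.01 and at 2-fold. With 1 FPKM in both libraries 1 was higher and 5 lower, with a median of 0.06, and at a mean of at least 5 FPKM 1 was higher and 5 lower, with a median of -0.46. Without a filter their median was 0.00. The cause of these shifts was not tested beyond the fewer or added genes that each filter sets. No paired analysis was possible because there is only 1 library per genotype, and leaving out a library leaves no comparison. Variation between animals is unmeasured, and members under about 100 fragments in a library (Ucp1 and Slc25a20 in WT, and Vdac1 on its shorter transcript) have the widest counting intervals.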

Other observations

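Creatine and calcium cycling, known as heat-producing routes that do not need UCP1, were also read as a list. Of 13 genes, 5 were at 0 in both libraries and 7 passed the filter, of which 2 were higher in KO by 3-fold, 1 was lower and 4 lay within 3-fold, with a median of 0.12. The 42.9% past 3-fold stood against 27.3% of all genes. The 2 higher genes, Ckmt1 and Atp2a3, passed the filter through the KO library alone. With at least 1 FPKM in both libraries or a mean of at least 5 FPKM, 0 were higher, 1 was lower and the median was -0.24. Gamt, which completes creatine synthesis, was at 72.4 FPKM in WT against 19.4 FPKM in KO, whereas Gatm, the enzyme before it, was at 68.3 and 74.0 FPKM. The cytosolic creatine kinase Ckb was at 87.2 and 73.5 FPKM, and the mitochondrial creatine kinase Ckmt1 was listed at 0 in WT but at 2.16 FPKM in KO. The calcium pump Atp2a3 was at 0.0362 FPKM in WT against 6.63 FPKM in KO, and Atp2a2 was at 36.3 and 57.1 FPKM.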
